A study of Mus musculus and Rattus norvegicus with 28 samples.

Results

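The 9 genes described here mark the epicardium and related mesothelial sheets, and they were followed in left ventricular cardiomyocyte preparations from mice and rats. They were Wt1, Tbx18, Upk3b, Upk1b, Msln, Aldh1a2, Krt8, Krt18 and Krt19, chosen by name, and all 9 were found among the 55450 genes quantified in mouse and the 32623 quantified in rat. The mouse libraries came from wild-type C57BL/6 hearts at embryonic day 18.5 (E18.5) and at postnatal days 1, 3 and 7 (P1, P3 and P7), with 2 RNA-seq and 2 ATAC-seq libraries at each age. The rat libraries came from cultured Sprague Dawley neonatal ventricular cardiomyocytes isolated at P1 (NRVCs), given either DMSO as control or 100 nM trichostatin A (TSA), an inhibitor of histone deacetylases, with 3 RNA-seq libraries each. Animals of both sexes were used, and no genetic change is named for any group. Ventricles were digested with trypsin and collagenase and pre-plated on uncoated dishes so that adherent non-cardiomyocytes would be left behind, and the mouse cells were then used without culture. Epicardial cells were neither sorted for nor removed by a marker, so each value is the level of a transcript in the whole preparation, and fewer cells of a type cannot be told apart from less RNA per cell.

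The epicardium is the mesothelial layer that covers the heart. In the embryo some of its cells undergo an epithelial to mesenchymal transition and give rise to cardiac fibroblasts and mural cells, and in the healthy adult it is a quiet single layer. Wt1 (Wilms tumour 1) and Tbx18 are transcription factors used to trace it, Aldh1a2 (Raldh2) makes retinoic acid from retinaldehyde, Upk3b and Upk1b are uroplakins, which are membrane proteins first described in bladder, Msln (mesothelin) is a cell surface glycoprotein, and Krt8, Krt18 and Krt19 are keratins of simple epithelia.

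Markers of the labelled cell type fell with age while those of fibroblasts rose: all 12 cardiomyocyte markers were called lower and all 10 fibroblast markers higher at P7 than at E18.5 by limma. Of all tested genes, 12.3% were called lower and 15.4% higher in that comparison. The summed FPKM (fragments per kilobase of transcript, scaled to library size, so a level per length) of 12 cardiomyocyte markers ranged from 27010 to 34590 at E18.5, from 12420 to 20430 at P1, from 7382 to 8391 at P3 and from 917.8 to 2110 at P7. That of 10 fibroblast markers over the same ages was 437.1 to 448.3, 1155 to 1386, 1559 to 1565 and 2939 to 3664. The 10 smooth muscle and pericyte markers summed to 501.8 to 609.0 at E18.5 and 1735 to 1941 at P7, with 5 called higher and 2 lower. For 10 macrophage markers it was 53.3 to 54.9 and 113.3 to 133.5, with 1 called higher and 1 lower. Their median log2 fold change, over 9 tested, was -0.43, against 0.145 for all tested genes. The 10 endothelial markers summed to 302.1 to 488.9 and 443.6 to 525.9, which overlapped. By staining for cardiac troponin T, the paper reports highly pure cardiomyocytes, P7 included. It also reports that the promoters of Pecam1 (endothelial) and Dcn (fibroblast) were closed in these cells, though marked by H3K27ac in whole heart at P7. The 6 measured markers of lung and other epithelium summed to 3.18 and 4.69 at E18.5 and to between 0.207 and 1.85 in later mouse libraries. Up to 5 of the 6 were listed at 0. The 1 gene of these that was tested was called lower at P1, P3 and P7, against 6.06%, 8.88% and 12.3% of all tested genes. Libraries held 29.3 to 37.5 M aligned reads in mouse and 28.2 to 38.5 M in rat. In rat, replicate 3 of either group stood apart: its median absolute log2 difference from the other libraries of its group was 0.242 to 0.256, against 0.108 and 0.1 between replicates 1 and 2. The part of these shifts in the marker values below was not tested.

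Levels of the 9 markers spanned about an order of magnitude at E18.5. Msln was the highest by mean FPKM (49.5), followed by Krt19 (40.3), Krt18 (36.4), Upk3b (26.3), Krt8 (23.8), Tbx18 (9.32), Upk1b (9.16), Aldh1a2 (6.68) and Wt1 (5.46). The libraries of Upk3b and Krt8, of Tbx18 and Upk1b, and of Aldh1a2 and Wt1 overlapped, so that those neighbours could not be ordered. At P7 the order had changed. Aldh1a2 led at a mean of 174 FPKM, Upk1b (41.1), Upk3b (33.6), Msln (31.3), Krt18 (30.0) and Krt8 (26.0) followed with each overlapping the next, and Krt19 (22.4), Tbx18 (16.0) and Wt1 (9.90) were lowest. The sum over the markers was 200.6 to 213.1 FPKM at E18.5, 275.3 to 365.1 at P1, 234.6 to 291.6 at P3 and 383.9 to 385.2 at P7. Aldh1a2 alone gave 148.5 and 200.1 FPKM of the P7 sums, against 5.71 and 7.65 at E18.5. The P7 sum therefore does not show a rise of the markers as a set.

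**Figure D1:**
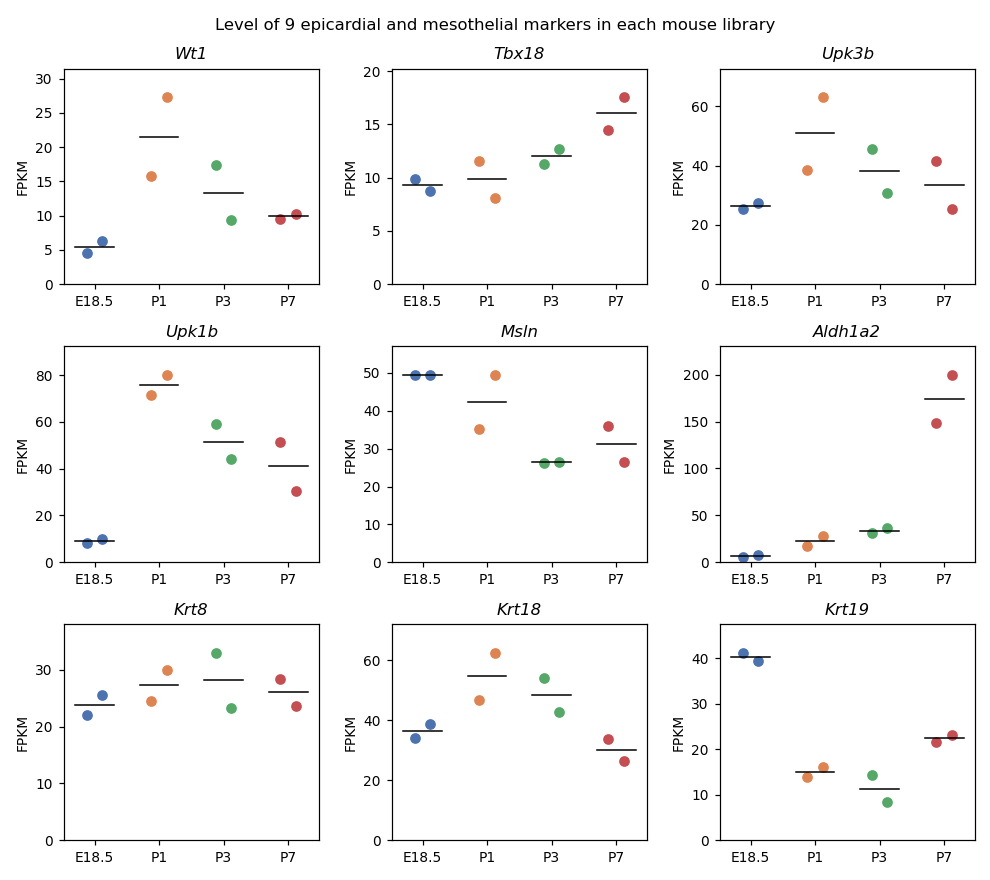
FPKM (vertical axis, starting at 0) of each marker in the 2 mouse libraries of each age (points, replicate 1 left of replicate 2), with the mean of the group as a black line. Aldh1a2 rises at every age to 148.5 and 200.1 at P7, Upk1b is lowest at E18.5, and Krt19 is highest at E18.5.

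To ask how the markers change at birth and over the first postnatal week, P1, P3 and P7 were each compared with E18.5, and P7 with P1, by limma on log2(FPKM + 1) over 13979 genes. A gene was called changed at a Benjamini-Hochberg adjusted p under 0.05 with a log2 fold change over 1 in size. Fold changes are on this log2 scale, which understates the change of low genes. The comparisons with E18.5 share their control libraries. All 9 markers were tested. At P1, 4 of them were called (3 higher and 1 lower), while 16.2% of all tested genes were called (10.1% higher and 6.06% lower). The same count, 4, was called at P3, where 21.9% of all genes were (13.0% higher and 8.88% lower), and 2 were called at P7, both higher, against 27.7% of all genes (15.4% higher and 12.3% lower). From P1 to P7, 1 marker was called, against 8.91% of all genes (3.45% higher and 5.46% lower). The median log2 fold change of the 9 was 0.56, 0.39, 0.30 and -0.42 in these comparisons, and that of all tested genes was 0.15, 0.16, 0.14 and -0.004. The libraries of the compared groups did not overlap for 6, 8, 7 and 6 of the 9 markers, against 69.6%, 74.8%, 78.3% and 62.7% of all tested genes.

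**Figure D2:**
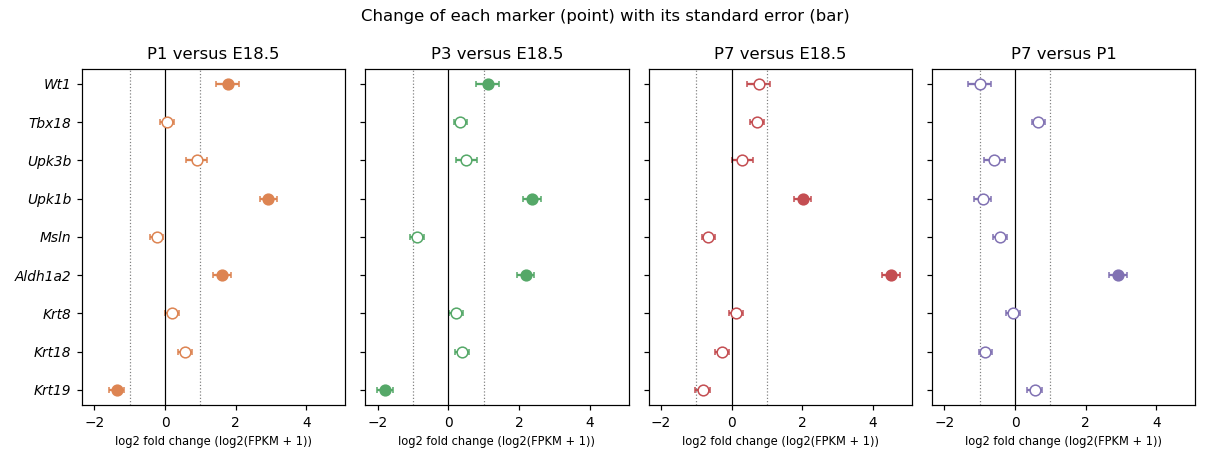
Log2 fold change of each marker on the log2(FPKM + 1) scale (point) with its standard error from limma (bar) in the comparisons of P1, P3 and P7 with E18.5 and of P7 with P1. Filled points were called changed and open points were not, and dotted lines mark a log2 fold change of 1 in size. Aldh1a2 is filled in all 4 panels, Upk1b in the 3 comparisons with E18.5.

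Aldh1a2 had the largest change. It encodes the main retinaldehyde dehydrogenase of the embryonic epicardium. Its FPKM was 5.71 and 7.65 (E18.5), 17.4 and 28.1 (P1), 30.7 and 36.8 (P3) and 148.5 and 200.1 (P7). The ages did not overlap, and each was above the one before. The log2 fold change against E18.5 was 1.60 (SE 0.25, limma adjusted p = 0.00188) at P1, 2.18 (adjusted p = 0.000324) at P3 and 4.51 (SE 0.25, adjusted p = 1.01e-05) at P7, a 26.1-fold ratio of mean FPKM. From P1 to P7 it rose by a further 2.91 (SE 0.25, adjusted p = 0.000776). Its only annotated transcript has 2264 bases, and its value rested on 379 to 16248 estimated reads per library. A pseudogene, Gm48124, lies inside the gene on the annotation.

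The promoter of Aldh1a2 is shown because it is the most CpG-rich of those read, and because an ATAC-seq peak overlapped it at P3 and P7 and not before. It is the RefSeq window on mm10 (GRCm38.p6) at chr9:71215539-71215838, plus strand, from 250 bases before to 50 after the start, with each CpG in capitals.
Aldh1a2: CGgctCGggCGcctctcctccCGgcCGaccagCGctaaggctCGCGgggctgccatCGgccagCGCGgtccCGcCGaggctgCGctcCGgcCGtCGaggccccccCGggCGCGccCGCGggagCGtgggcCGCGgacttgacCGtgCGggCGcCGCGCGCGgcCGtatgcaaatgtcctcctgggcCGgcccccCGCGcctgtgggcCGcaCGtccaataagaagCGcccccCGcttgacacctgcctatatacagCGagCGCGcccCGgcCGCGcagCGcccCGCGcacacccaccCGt
This window held 50 CpG dinucleotides at 78.0% G and C, a number reached by 0.9% of 32851 mouse promoter windows of the same length, whose median was 7. A peak overlapped it in both P3 and both P7 libraries, with a fold enrichment of 6.68 and 5.92 at P3 and of 5.05 and 5.68 at P7. No peak was listed within 2.5 kb of the start in the E18.5 and P1 libraries, whose lists were shorter. Among the 13149 highest-scoring peaks of each library, which makes the lists equal in length, Aldh1a2 had one in P7 replicate 2 alone.

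Wt1, the zinc finger factor, was called higher at P1 and P3. Its FPKM was 4.56 and 6.35 (E18.5), 15.7 and 27.3 (P1), 17.4 and 9.34 (P3) and 9.51 and 10.3 (P7). Both libraries of every later age lay above both at E18.5, and the highest value was in P1 replicate 2. The log2 fold change was 1.77 (SE 0.32, limma adjusted p = 0.00383) at P1 and 1.11 (SE 0.32, adjusted p = 0.0223) at P3. At P7 it was 0.77 (adjusted p = 0.0759), and from P1 to P7 it was -0.999 (adjusted p = 0.0714), neither of which was called. The P7 value was 1.07 (adjusted p = 0.0239) with TPM, and the P1 to P7 value was -1.38 (adjusted p = 0.0353) without P1 replicate 1. The P3 call was lost in 5 of 10 alternatives: without P3 replicate 1 the log2 fold change was 0.69 (adjusted p = 0.143) and without E18.5 replicate 1 it was 0.91 (adjusted p = 0.12), and the adjusted p was 0.0805 with no filter, 0.0528 with size factors and 0.14 with limma-voom. Wt1 lies on chromosome 2 just downstream of Wt1os, a gene of the opposite strand. Its 9 annotated transcripts begin at 8 starts, and a transcript from the start at 105130883 took from 1.84% to 61.8% of its FPKM, depending on the library.

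Tbx18, a T-box factor of the epicardium and the sinus horns, was not called in any comparison. Its FPKM was 9.92 and 8.72 (E18.5), 11.6 and 8.14 (P1), 11.3 and 12.7 (P3) and 14.5 and 17.6 (P7). The P7 libraries were the highest. The log2 fold change was 0.06 (limma adjusted p = 0.833) at P1, 0.34 (adjusted p = 0.178) at P3 and 0.72 (SE 0.19, adjusted p = 0.0128) at P7, which passed the p threshold and not the fold threshold. A gene of the opposite strand, D030062O11Rik, overlaps the start of Tbx18, and reads of the pair cannot be told apart without strand.

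The promoter of Tbx18 is shown because a peak overlapped it in 6 of 8 ATAC-seq libraries, E18.5 included. It is at chr9:87731211-87731510 on mm10, minus strand, with each CpG in capitals.
Tbx18: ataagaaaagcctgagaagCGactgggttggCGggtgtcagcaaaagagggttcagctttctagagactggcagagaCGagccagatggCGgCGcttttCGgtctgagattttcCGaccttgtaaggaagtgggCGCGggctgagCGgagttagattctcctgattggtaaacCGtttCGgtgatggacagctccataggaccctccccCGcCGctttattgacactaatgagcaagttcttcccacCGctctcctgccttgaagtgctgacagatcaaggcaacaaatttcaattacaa
It held 15 CpG dinucleotides, and 34.6% of promoter windows held as many. The peak was listed in E18.5 replicate 1, P1 replicate 1 and both libraries of P3 and P7, with its highest fold enrichment, 8.84, in P1 replicate 1.

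Upk1b, a uroplakin of the tetraspanin family, rose the most at birth among the 9. Its FPKM was 8.36 and 9.95 (E18.5), 71.7 and 80.2 (P1), 59.0 and 44.1 (P3) and 51.6 and 30.6 (P7). Every postnatal library was above both E18.5 libraries. The log2 fold change was 2.92 (SE 0.25, limma adjusted p = 0.00014) at P1, 2.36 (adjusted p = 0.000216) at P3 and 2.01 (adjusted p = 0.000274) at P7. From P1 to P7 it was -0.91 (SE 0.25, adjusted p = 0.0364), below the fold threshold, and -1.28 (adjusted p = 0.01) without P7 replicate 1.

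Upk3b, the other uroplakin, and Msln were not called in any comparison. The FPKM of Upk3b was 25.3 and 27.3 (E18.5), 38.7 and 63.3 (P1), 45.7 and 30.9 (P3) and 41.6 and 25.5 (P7). It was highest at P1, with a log2 fold change of 0.89 (SE 0.30, limma adjusted p = 0.0449), under the fold threshold. Without P1 replicate 1 this was 1.24 (adjusted p = 0.0286), and with TPM in place of FPKM it was 1.14 (adjusted p = 0.0147). The FPKM of Msln was 49.5 in either E18.5 library, 35.1 and 49.6 (P1), 26.2 and 26.5 (P3) and 36.0 and 26.6 (P7). Msln was lowest at P3, where its log2 fold change was -0.88 (SE 0.19, adjusted p = 0.00641), and at P7 it was -0.66 (adjusted p = 0.0199). Neither passed the fold threshold, and the P3 value was -1.10 (adjusted p = 0.00232) with median-of-ratios size factors and -1.03 (adjusted p = 0.00275) with limma-voom. Reads shared with paralogs of either gene could have been split by the authors' counting.

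The promoter of Upk3b is shown as the CpG-poor contrast to that of Aldh1a2. It is at chr5:136038246-136038545 on mm10, plus strand, with each CpG in capitals.
Upk3b: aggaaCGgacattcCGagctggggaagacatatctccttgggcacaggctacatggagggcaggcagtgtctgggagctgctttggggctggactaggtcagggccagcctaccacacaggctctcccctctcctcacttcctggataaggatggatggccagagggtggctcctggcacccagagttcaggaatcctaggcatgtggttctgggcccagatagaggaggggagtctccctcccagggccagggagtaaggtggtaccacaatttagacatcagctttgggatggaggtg
It held 2 CpG dinucleotides, and 85.9% of promoter windows held as many. A peak overlapped it in both P3 libraries (fold enrichment 8.62 and 7.08) and in P7 replicate 1 (6.48), and in no library at E18.5 or P1.

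Of the 3 keratins, Krt19 was called lower at P1 and P3, and Krt8 and Krt18 were not called in any comparison. Krt8 and Krt18 pair as type II and type I chains in the filaments of simple epithelia, and Krt19 is a smaller type I chain. The FPKM of Krt19 was 41.2 and 39.4 (E18.5), 13.9 and 16.1 (P1), 14.2 and 8.31 (P3) and 21.5 and 23.2 (P7). Both E18.5 libraries were above every later one. Krt19 fell by 1.37 on the log2 scale at P1 (SE 0.22, limma adjusted p = 0.00208) and by 1.79 at P3 (adjusted p = 0.00042). At P7 its log2 fold change was -0.82 (adjusted p = 0.0131), not called, and -1.001 (adjusted p = 0.00614) with median-of-ratios size factors.

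The FPKM of Krt8 was 22.1 and 25.5 (E18.5), 24.5 and 30.0 (P1), 33.0 and 23.3 (P3) and 28.4 and 23.6 (P7), with overlap between E18.5 and each later age. Krt18 was 34.0 and 38.8 (E18.5), 46.7 and 62.5 (P1), 54.0 and 42.6 (P3) and 33.6 and 26.4 (P7). It was highest at P1, at a log2 fold change of 0.56 (SE 0.20, adjusted p = 0.0498) that was not called, and from P1 to P7 it was -0.84 (SE 0.20, limma adjusted p = 0.0206), also under the fold threshold. That last value was -1.05 (adjusted p = 0.0179) without P1 replicate 1 and -1.01 (adjusted p = 0.0314) without P7 replicate 1. The lincRNA Gm36026 overlaps Krt8 on the annotation, and Krt8-like pseudogenes could share its reads.

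The promoters of this keratin pair are shown because neither window held a peak in any library. That of Krt8 is at chr15:102004293-102004592 on mm10, minus strand, and that of Krt18 is at chr15:102027966-102028265, plus strand, with each CpG in capitals.
Krt8: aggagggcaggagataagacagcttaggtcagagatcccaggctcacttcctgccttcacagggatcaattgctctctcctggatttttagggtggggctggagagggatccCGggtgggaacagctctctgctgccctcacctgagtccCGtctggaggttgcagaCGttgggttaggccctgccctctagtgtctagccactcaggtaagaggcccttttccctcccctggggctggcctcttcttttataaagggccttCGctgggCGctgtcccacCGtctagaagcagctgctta
Krt18: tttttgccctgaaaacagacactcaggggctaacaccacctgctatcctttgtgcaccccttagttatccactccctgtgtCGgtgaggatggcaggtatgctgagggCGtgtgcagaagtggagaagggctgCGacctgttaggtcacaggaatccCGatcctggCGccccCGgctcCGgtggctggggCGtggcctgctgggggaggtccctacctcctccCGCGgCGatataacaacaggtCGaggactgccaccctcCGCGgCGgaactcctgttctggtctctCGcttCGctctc
They held 6 and 17 CpG dinucleotides, and 56.4% and 31.4% of promoter windows held as many. The TATA box letters TATAAA, searched on both strands, matched once on either strand of the Krt8 window, the 2 matches overlapping, and in none of the other 4 windows shown, while 13.6% of all promoter windows held a match. The letters CATTCC (TEAD factors) matched once in the Upk3b window, against 14.7% of all windows, and AGATAA, which factors of the GATA family bind, once in the Krt8 window, against 11.2%. TGANTCA (AP1) and GGGCGG (SP1) were in none of the 5 windows, against 7.8% and 35.7% of all.

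Profiles over the 8 mouse libraries were compared by the mean absolute difference of standardized log2(FPKM + 1) values, a description with no test. Among the 9 markers the closest pairs were Wt1 with Upk3b (0.363), Wt1 with Upk1b (0.375) and Tbx18 with Aldh1a2 (0.416). Over all tested genes, those nearest to Upk1b were the pseudogene Gm6650 (0.0566) and Bnc1 (0.071), which encodes the zinc finger protein basonuclin 1 and is itself on the list of other epicardial genes. The mean FPKM of Bnc1 was 0.588, 12.1, 8.46 and 6.24 from E18.5 to P7. The nearest to Aldh1a2 was Hic1 (0.0932), a transcriptional repressor, at 2.35, 7.39, 9.30 and 26.5. The nearest to Krt19 was Cd274 (0.184), and the nearest to Wt1 was Scp2 (0.122). For Tbx18 it was Atp8b1 (0.159), for Upk3b Cgn (0.229), for Msln Gm6030 (0.199), for Krt8 Optn (0.31) and for Krt18 Tg (0.128).

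Of 15 other epicardial and mesothelial genes, 14 were tested. At P1, 8 were called higher and 3 lower, at P3 8 and 2, and at P7 7 and 2, with median log2 fold changes of 1.89, 1.48 and 1.27. Of all tested genes, 10.1%, 13.0% and 15.4% were called higher and 6.06%, 8.88% and 12.3% lower, with medians of 0.151, 0.164 and 0.145. Lrrn4, a leucine-rich repeat protein of mesothelium, had a mean of 71.8 ± 11.6 FPKM (SD, n = 2) at P1 against 3.98 ± 0.393 at E18.5 (log2 fold change 3.86, limma adjusted p = 5.46e-05). Pdpn, podoplanin, went from 11.5 to 114.5 at P1 and 227.5 at P7 (log2 fold change 4.197 at P7, adjusted p = 5.85e-06). Clu, clusterin, went from 85.6 to 842.1 at P1 (3.19, adjusted p = 0.000215). Bnc1, Gpm6a, Sema3d and Tcf21 rose at all 3 ages, and Krt7 rose at P1 and P3. Tcf21 is a fibroblast marker as well and was counted in that list too. The genes that fell at P1 were Dmkn (dermokine), from 13.4 to 0.201 FPKM with a log2 fold change of -3.55 (adjusted p = 0.000115), Nkain4 (-1.70) and Podxl (podocalyxin, -1.04). From P1 to P7, Dmkn and Pdpn were called higher and none lower, against 3.45% and 5.46% of all tested genes.

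**Figure D3:**
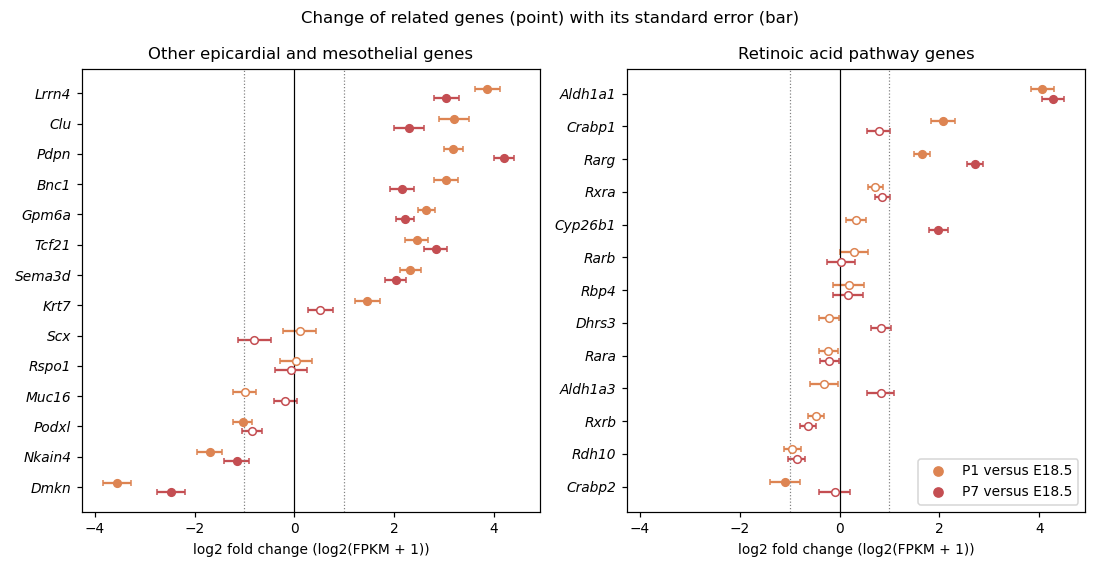
Log2 fold change on the log2(FPKM + 1) scale (point) with its standard error from limma (bar) of tested genes of either list (14 epicardial and mesothelial, 13 of the retinoic acid pathway), at P1 (orange) and P7 (red) against E18.5. Filled points were called changed and dotted lines mark a log2 fold change of 1 in size; Lrrn4, Clu, Pdpn and Bnc1 lie at the upper right of the epicardial genes and Aldh1a1 at the top of the retinoic acid genes.

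Aldh1a2 belongs to a pathway of which 18 other genes were listed and 14 tested. Of these, 4 were called higher at each of P1, P3 and P7, and 1 was called lower at P1. Over all tested genes the shares called higher were 10.1%, 13.0% and 15.4%, and 6.06% were called lower at P1. Aldh1a1, a related retinaldehyde dehydrogenase, reached 44.5 FPKM by P1 and 51.1 by P7 from 1.72 before birth (log2 fold change 4.06 and 4.28, limma adjusted p = 3.66e-05 and 8.71e-06). The receptor Rarg went from 2.70 to 10.7 FPKM at P1 and 23.3 at P7 (log2 fold change 1.66 and 2.71). Cyp26b1, which degrades retinoic acid, was called at P7 alone among the comparisons with E18.5, at 5.07 FPKM against 0.525 (1.98, adjusted p = 9.47e-05). Crabp1 was called higher at P1 and P3, and Crabp2 was the gene called lower at P1. The receptors Rara, Rarb, Rxra and Rxrb were not called in these comparisons.

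Genes of the epithelial to mesenchymal transition were measured beside them. Of 11 tested, 6 were called higher at P1 and P3 and 7 at P7, and none lower. The shares of all tested genes called higher at P1, P3 and P7 were 10.1%, 13.0% and 15.4%. Snai1, a repressor of E-cadherin, reached 22.6 FPKM by P1 and 45.0 by P7 from 4.24 before birth (log2 fold change 2.16 and 3.13, limma adjusted p = 5.8e-05 and 6.53e-06). Twist1, Twist2, Snai2, Fn1 and S100a4 were the others called at all 3 ages, and Zeb2 was called at P7. These are expressed by fibroblasts too, whose 10 markers were called higher in 7, 7 and 10 cases at P1, P3 and P7. Of the other keratins, 3 of 10 measured genes were tested, of which Krt7 was called higher at P1 and P3 and Krt80 lower at P7.

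ATAC-seq, which cuts accessible chromatin with a transposase, was read as the authors' peak lists, called in each library on its own. Their lengths in peaks were 13149 and 14910 (E18.5), 29281 and 19753 (P1), 95257 and 52040 (P3) and 49113 and 35898 (P7). Within 2.5 kb of a transcript start, both libraries listed a peak for 1 of the 9 markers at E18.5 (Tbx18), 1 at P1 (Wt1), 8 at P3 (all but Krt18) and 5 at P7 (Wt1, Tbx18, Upk1b, Msln and Aldh1a2). The same held for 37.3%, 27.2%, 63.0% and 57.5% of 21951 protein-coding genes. Any peak in the window counts, and the Tbx18 peaks of the E18.5 libraries did not overlap. That of replicate 1 had its summit 69 bases upstream of the gene, and that of replicate 2 lay in an intron, 256 bases past another start. With the 13149 highest-scoring peaks of each library, which makes the lists equal in length, the counts were 0, 1, 1 and 2 of the 9, against 35.5%, 20.5%, 24.6% and 29.9% of genes. With a library left out, a peak was asked for in the remaining library alone, so a count could only stay or rise. It was 4 without P1 replicate 2 and 9 without P7 replicate 2, against 46.8% and 61.7% of genes.

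**Figure D4:**
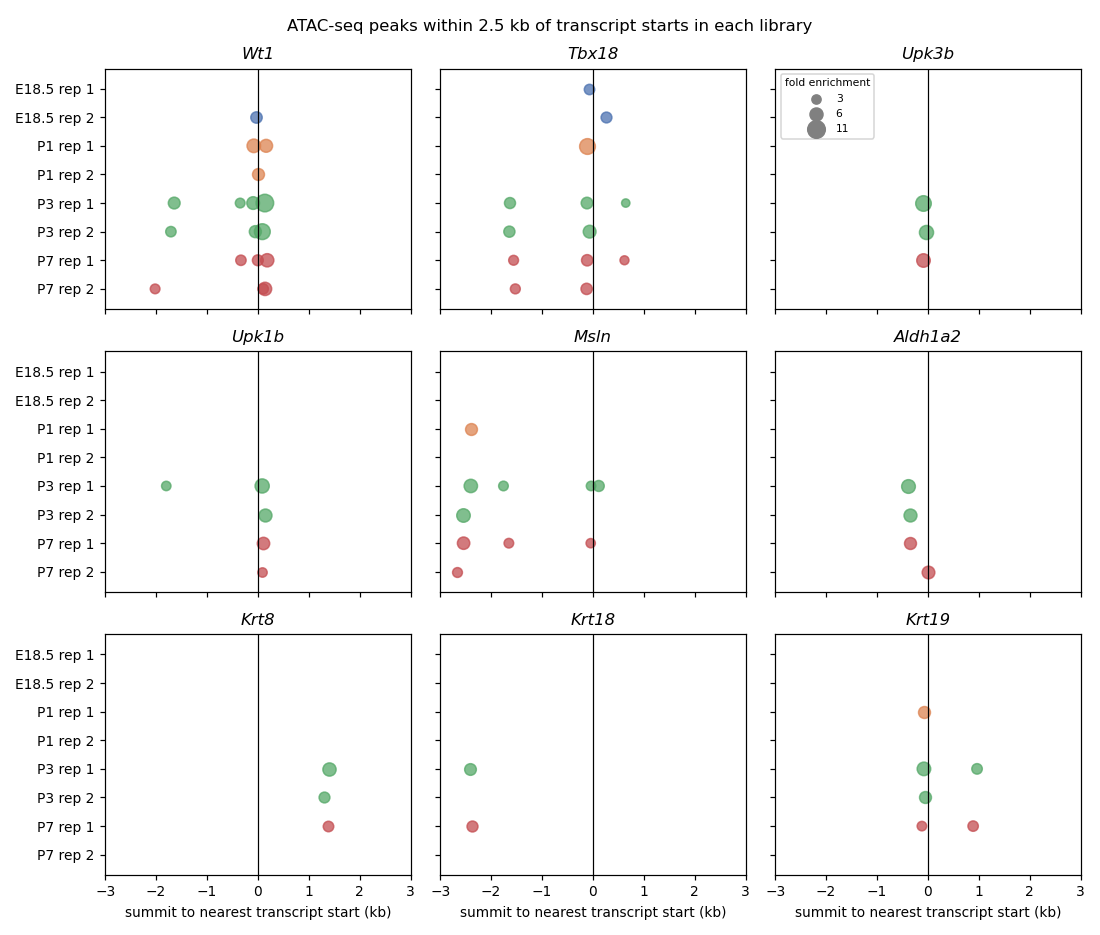
Position of each ATAC-seq peak within 2.5 kb of a marker's transcript starts. The horizontal axis is the distance from the nearest start to the peak's summit in kb (negative is upstream), each row is a library, and the area of a point scales with fold enrichment. Points are few at E18.5 and P1, and Krt8 and Krt18 have none near their starts.

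Wt1 carried the strongest peak among the 9 markers. It lay over or within 120 bases of an internal start on chromosome 2 at 105162808, with its summit in an exon, at a fold enrichment of 10.98 and 8.91 in the P3 libraries. It was also listed in both P7 libraries and in P1 replicate 1. The transcript annotated from that start, of 941 bases, was at 0.622 FPKM or less in every library. At the first annotated start, 105126529, a peak was listed in 7 of 8 libraries, E18.5 replicate 1 being the exception.

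Upk1b had a peak at its start in all P3 and P7 libraries (fold enrichment 3.13 to 7.14) and in none before. Of the 10 peaks of Msln, 5 lay 2393 to 2678 bases upstream, 1 each in P1 replicate 1 and in the P3 and P7 libraries. Krt19 had one at its main start in P1 replicate 1, both P3 libraries and P7 replicate 1, within an intron of a minor transcript that starts farther upstream. Krt8 had one in an intron, 1298 to 1396 bases inside the gene, in both P3 libraries and P7 replicate 1. Krt18 had one 2370 and 2413 bases upstream in P7 replicate 1 and P3 replicate 1. Peaks are listed only above the caller's threshold, so a missing peak gives no level.

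In rat NRVCs the 9 markers were compared between TSA and control over 13625 genes. Levels were not compared with the mouse, since the tables were made separately. Aldh1a2 was the highest, at 34.1, 29.0 and 26.6 FPKM in control and 31.2, 26.7 and 12.5 with TSA. Upk3b, at 0.234 to 1.10 FPKM, did not pass the filter on low values and was not tested, so 8 markers were. The libraries of the groups did not overlap for 1 of the 8 tested markers, Upk1b, against 27.2% of all tested genes.

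One marker, Upk1b, was called higher with TSA, where 2.13% of all genes were called (1.81% higher and 0.316% lower). Its FPKM was 0.644, 1.38 and 1.65 in control and 5.36, 4.84 and 2.94 with TSA. Each TSA library was above each control library. The log2 fold change was 1.27 (SE 0.26, limma adjusted p = 0.0487), and an exact two-sided permutation test gave p = 0.1, the smallest that 3 against 3 allows. No label states whether same-numbered libraries were paired. With the replicate number as a block, the limma adjusted p was 0.0746 and the call was lost. It was also lost in 8 further of the 13 alternatives, over which the adjusted p ranged from 0.00917 to 0.192, among them leaving out control replicate 1 (log2 fold change 1.07, adjusted p = 0.14), control replicate 2 (1.34, 0.12), TSA replicate 1 (1.14, 0.169) or TSA replicate 2 (1.20, 0.192).

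The summed FPKM of 9 fibroblast markers was 6410 to 6957 in control and 3585 to 5993 with TSA, and that of 11 cardiomyocyte markers was 13460 to 16840 and 11770 to 24250. That of 9 endothelial markers was 22.0 to 32.2 in control and 34.6 to 41.8 with TSA. That of 12 other epicardial genes was 414.1 to 682.8 and 838.6 to 882.6, so that neither sum overlapped. Taken singly, 27.2% of all tested genes did not overlap between the groups. Of these lists, 0 of 8 tested endothelial and 0 of 9 tested epicardial genes were called, against 2.13% of all tested genes. The 9 macrophage markers summed to 492.0 to 1039 in control and 424.6 to 558.6 with TSA, at a median log2 fold change of -0.84. Of these 9, all tested, 1 was called higher and 0 lower, against 1.81% and 0.316% of all tested genes. The part of these shifts in the Upk1b value was not tested.

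The other 7 tested markers were not called. Wt1 was 3.75, 3.16 and 2.83 FPKM in control and 3.86, 3.92 and 2.93 with TSA (log2 fold change 0.10, SE 0.16, limma adjusted p = 0.777). Aldh1a2 had a log2 fold change of -0.43 (SE 0.32, adjusted p = 0.521), with TSA replicate 3 the lowest library. Krt18 was 2.76, 1.68 and 7.58 in control and 4.15, 4.79 and 7.15 with TSA, both replicates 3 being the highest of their group (0.50, SE 0.42, adjusted p = 0.58). Tbx18, Msln, Krt8 and Krt19 had log2 fold changes of 0.02, -0.09, -0.11 and 0.26, with overlap between the groups. Of the other epicardial genes 0 of 9 tested were called by limma, against 2.13% of all genes. An unadjusted p under 0.05 was found for 4 of the 9, and the share of all genes under it was not counted. Pdpn (log2 fold change 0.86, adjusted p = 0.0114), Gpm6a (0.96, 0.036) and Scx (-0.83, 0.0339) passed the adjusted p and not the fold threshold. Of the retinoic acid genes 1 of 12 was called, Crabp1, which was listed at 0 in all control libraries and at a mean of 1.498 FPKM with TSA (adjusted p = 0.0299).

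**Figure D5:**
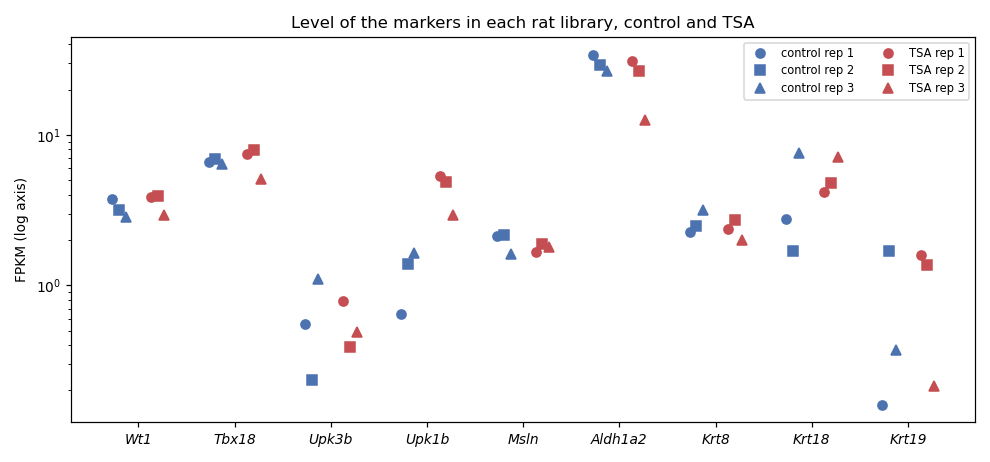
FPKM on a log axis of each marker in the 3 control (blue) and 3 TSA (red) rat libraries, with circles, squares and triangles for replicates 1, 2 and 3. Upk1b is the marker whose groups do not overlap, and replicate 3 is the lowest Aldh1a2 library of either group.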

How the data were processed

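RNA-seq and ATAC-seq were made from mouse ventricular cardiomyocytes, and RNA-seq from rat NRVCs; 6 HiChIP libraries were not analysed here. Libraries were poly-A selected with a kit that does not mark strand. The authors aligned reads with HISAT2 (2.1.0) and quantified annotated transcripts with StringTie (1.3.5 per the mouse file headers), and deposited coverage, FPKM and TPM per transcript; a gene's FPKM was summed over its transcripts. Aligned reads per library were estimated from the deposited coverage to FPKM ratio and the 150-base read length. For ATAC-seq the authors called peaks per library with MACS2 on mm10 without blacklisted regions, and deposited for each peak a score, a fold enrichment ratio and -log10 p and q values.

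Genes at 1 FPKM or more in 2 mouse or 3 rat libraries were tested with limma (3.58.1, R 4.3.3) on log2(FPKM + 1), all ages in one mouse fit, with Benjamini-Hochberg adjustment over all tested genes. The script was tested on simulated data. The deposited values give no read counts per gene, so the authors' count test was not rerun. The study describes biological replicates, but the sources used here do not say which animals or pools made each RNA-seq library, so p-values measure the spread between these libraries. The members and lists were chosen with earlier results of these data known. Every member was named, as were called genes of the lists most related to them, and the nearest genes by profile. One gene counted in the retinoic acid list is not reported here. Promoter windows came from RefSeq for the 5 markers with an entry (Tbx18, Upk3b, Aldh1a2, Krt8 and Krt18); Wt1, Upk1b, Msln and Krt19 had none in the table used. Same-numbered rat libraries deviated together from their group means (correlation 0.224, 0.194 and 0.346). No label states a pairing, and the main fit had no replicate block. Replicate 3 stood apart in either rat group, and its part in these correlations was not tested. Alternatives were another pseudocount (0.1), no filter, median-of-ratios size factors, a replicate block, TPM, estimated reads in limma-voom, leaving out each library, and, for peaks, a 1 kb window, the peak midpoint and equal list lengths. Leaving out both rat replicates 3 was added after the data were seen.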

Additional observations from a re-analysis of the deposited data

How the results depend on the processing

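Of 464 log2 fold changes of the markers recomputed under alternatives, 423 kept their direction and their side of the threshold, 10 passed it newly, 14 lost it and 17 changed sign. The losses were Wt1 at P3 in 5 of 10 alternatives (range 0.69 to 1.53) and Upk1b under TSA in 9 of 13. The other 10 called changes held in each alternative run. TPM moved the median log2 fold change of all genes at P1, P3 and P7 from 0.15, 0.16 and 0.14 to 0.38, 0.41 and 0.40, and median-of-ratios size factors moved it to -0.01, -0.02 and -0.01. The share of called genes that were higher was 62.5%, 59.4% and 55.7% as reported, 77.3%, 74.4% and 68.1% with TPM, and 45.7%, 45.7% and 45.5% with size factors. The replicate block in mouse, where correlations of deviations of same-numbered libraries ran from -0.096 to 0.171, moved no count of markers. It left 2270 genes called at P1 against 2258. In rat, the block took the TSA count from 1 to 0 and changed no other marker's call.

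The TSA count was also 0 with a pseudocount of 0.1, no filter, TPM and limma-voom, and ranged from 0 to 1 when a library was left out. The P7 against P1 count ranged from 1 to 3 when a library was left out. Peak counts ranged from 1 to 2 at E18.5, 1 to 4 at P1, 8 to 9 at P3 and 5 to 9 at P7 when a library was left out. That setting asks for a peak in the remaining library alone, so counts can only stay or rise. The shares of all genes under it were 41.5% to 44.7%, 29.3% to 46.8%, 63.3% to 70.3% and 60% to 61.7%. With equal list lengths the counts were 0 at E18.5, 1 at P3 and 2 at P7. All sign changes were of values that were not called. With size factors Tbx18 was -0.13 and Krt8 -0.009 at P1, Krt8 was -0.0564 at P7, and Tbx18 was -0.017 under TSA, where TPM gave -0.048. With a library left out, Tbx18 ranged from -0.17 to 0.29 and Msln from -0.49 to 0.0017 at P1, Krt8 from -0.024 to 0.46 at P3, Upk3b from -0.0402 to 0.645 and Krt8 from -0.0088 to 0.25 at P7, Krt8 from -0.20 to 0.074 from P1 to P7, and Tbx18 from -0.083 to 0.19 under TSA. Without both rat replicates 3, chosen after seeing the data, Krt8 under TSA was 0.0755. The causes were not tested. E18.5 replicate 1 and P7 replicate 1 carry the same code in their peak names, but share 1 identical interval.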
